A study of Homo sapiens with 20 samples.

Results

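The 9 genes described here encode the interleukin-2 receptor β chain (IL2RB), the common gamma chain (IL2RG), the other chains that pair with them (IL2RA, IL4R, IL7R, IL21R and IL15RA), the cytokine IL15 and the kinase JAK3. They were chosen by symbol from the 36076 genes of an mRNA-seq table of lung cancer cell lines, because IL2RB was higher after decitabine in 5 lines and was not detected in H1792. The rise of IL2RB and its low level in H1792 are therefore part of the choice and are given as values without a test. The question was whether the partners that IL2RB needs were present in each line.

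Cells of A549, CL1-0, CL1-5, PC9, H1299 and H1792 were either mock-treated with PBS (Mock) or given 100 nM of the DNA methyltransferase inhibitor decitabine (DAC) for 72 h and then grown without drug for 3 days. mRNA-seq was done once per line and treatment (12 libraries). Omni-ATAC-seq, which marks open chromatin by transposase insertion, covered H1299, A549, PC9 and CL1-5 in the same way (8 libraries). All are established human lung cancer lines grown in the same medium, and CL1-5 is a subline of CL1-0, so these lines share an origin. With 1 library per line and treatment there is no replicate within a line, and lines serve as replicates.

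Cytokines of this family bind a private receptor chain, and the signal passes through the common gamma chain, which carries JAK3. IL-2 and IL-15 also need the β chain, whose kinase is JAK1. The alpha chains IL2RA and IL15RA raise the affinity for IL-2 and present IL-15, and signalling then runs mainly through STAT5. IL-4 can also signal without the common gamma chain, through IL4R and IL13RA1. The family is best known from lymphocytes, where IL-2, IL-7, IL-15 and IL-21 sustain T and NK cells.

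Depth was 22234485 to 25303899 reads in the 10 libraries outside H1299, and 59735913 (Mock) and 52634234 (DAC) in H1299. Reads were recovered from the deposited FPKM values (fragments scaled to transcript length and library depth) and came out whole for 100% of values in each library. In H1299, 85.5% and 81.9% of the counts from 1 to 20 were even, against 39.2% to 41.5% elsewhere, so that most H1299 reads appear to have been counted doubly. A gene was called detected above 3 reads, and counting intervals for H1299 were computed on reads divided by 2. Leukocyte markers were mixed. CD3E (T cells) had up to 2 reads, GZMB (cytotoxic cells) up to 1, NCR1 (NK cells) up to 3 and PTPRC (all leukocytes) up to 18 reads in any library. Others of the same lists had reads, with KLRD1 (NK cells) at 22 to 334 in every library, CD3G (T cells) at 50 (Mock) and 66 (DAC) in H1299, TRAC (T cells) at 21 and 26 in CL1-5, and CD14 (myeloid cells) at 171 and 352 in A549. The epithelial genes EPCAM, KRT7, KRT8, KRT18 and KRT19 summed to between 112 and 3565 FPKM in the libraries of 5 lines, but to 0.424 (Mock) and 2.57 (DAC) FPKM in CL1-0, which therefore nearly lacked them.

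The peak lists of 2 lines carry names that go against their labels. In the lists labelled CL1-5 the peaks are named PC9, and in those labelled PC9 they are named CL1-5. Of 175 genes at 5 FPKM or more in PC9 Mock and under 0.1 FPKM in CL1-5 Mock, 90.3% had a promoter peak in the Mock list labelled CL1-5. The share was 57.1% in the Mock list with the PC9 label. Of 123 genes with the opposite pattern, the shares were 55.3% and 78.0% in the same order. The libraries are called below by their labels, with the name inside the list in brackets where a result depends on it.

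The promoters of members in a RefSeq table differed in CpG content, the dinucleotide on which DNA methylation acts. Promoters of 7 of the 9 members were listed. IL2RB and IL15 had no entry. In the 250 bases before the start, IL2RG and IL2RA held 3 CpG each, IL7R and IL21R 0, JAK3 10, the 4 starts of IL15RA 4 to 25, and IL4R 35. The IL21R entry, at GRCh38.p14 chr16:27427021-27427270, appears to precede a start inside the gene and not the canonical start described below. It lies farther from the IL4R entry than the canonical starts of these genes lie from each other in hg19. The CpG count at the canonical IL21R start is therefore not given. Over all 35116 promoters of the table the median was 11, with quartiles of 3 and 23. The letters of 4 are printed to show this contrast, with each CpG in capitals, 5′ to 3′ on the gene's strand, in build GRCh38.p14. The peaks described below are in hg19, so these coordinates cannot be set against them.
IL2RG, chrX:71111578-71111827, minus strand: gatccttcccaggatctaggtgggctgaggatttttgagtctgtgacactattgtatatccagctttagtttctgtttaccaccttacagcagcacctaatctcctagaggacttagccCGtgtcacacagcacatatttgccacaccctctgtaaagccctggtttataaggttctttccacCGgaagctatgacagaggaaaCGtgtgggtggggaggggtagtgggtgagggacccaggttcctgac
IL2RA, chr10:6062368-6062617, minus strand: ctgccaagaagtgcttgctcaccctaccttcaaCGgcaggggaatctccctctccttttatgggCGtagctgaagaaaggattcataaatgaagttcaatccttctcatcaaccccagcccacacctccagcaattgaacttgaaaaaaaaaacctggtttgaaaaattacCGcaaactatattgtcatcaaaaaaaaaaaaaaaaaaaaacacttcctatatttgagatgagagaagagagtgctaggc
IL7R, chr5:35856641-35856890, plus strand: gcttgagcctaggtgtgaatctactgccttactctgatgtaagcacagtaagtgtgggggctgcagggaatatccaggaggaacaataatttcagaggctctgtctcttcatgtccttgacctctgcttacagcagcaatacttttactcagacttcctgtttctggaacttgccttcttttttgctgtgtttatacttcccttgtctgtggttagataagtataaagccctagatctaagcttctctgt
IL4R, chr16:27313724-27313973, plus strand: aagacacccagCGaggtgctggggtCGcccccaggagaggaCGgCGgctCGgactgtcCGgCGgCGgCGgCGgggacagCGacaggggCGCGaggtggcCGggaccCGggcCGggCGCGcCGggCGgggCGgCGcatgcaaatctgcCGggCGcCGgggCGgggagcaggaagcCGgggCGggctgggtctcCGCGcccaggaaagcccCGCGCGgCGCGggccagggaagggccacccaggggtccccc

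IL2RB (ENSG00000100385, hg19 chr22:37514706-37571158, minus strand) was at 0.0596 FPKM in Mock and 0.757 in DAC cells of A549, at 0.0270 and 0.244 in CL1-0, at 0.0550 and 0.675 in CL1-5, at 0.0409 and 0.524 in PC9, at 0.0223 and 0.403 in H1299, and at 0 and 0.0266 in H1792. In each of the 5 lines that chose the gene, the DAC library stood above every Mock library, and the order after DAC was A549, CL1-5, PC9, H1299 and CL1-0. No spread within a line is available to say which neighbours in that order differ. These levels rest on 3 to 7 reads in Mock and 34 to 100 after DAC. Bulk RNA cannot tell more expressing cells from more RNA per cell.

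The ratio of DAC to Mock for IL2RB was highest in H1299 (18.0), followed by PC9 (12.8), A549 (12.7) and CL1-5 (12.3). In CL1-0, with 3 Mock reads, it was 9.04 (exact conditional Clopper-Pearson 95% interval 2.84 to 46.0, for counting error only). The mean over the 5 lines was 0.0410 ± 0.0165 FPKM in Mock and 0.521 ± 0.206 in DAC (SD, n = 5), a fitted log2 difference of 2.07 ± 0.23 (SE) on the log2(FPKM + 0.1) scale. At the edge of detection stood the H1792 DAC and CL1-0 Mock libraries with 3 reads each, just under the limit, and PC9 Mock with 4, just over it. With the H1299 limit doubled to 6 reads, IL2RB was not detected in H1299 Mock either. Of all 22603 genes tested, 86 were at least 2-fold higher after DAC in each of the 5 lines, and 13 of those had 3 reads or fewer in both H1792 libraries.

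**Figure D1:**
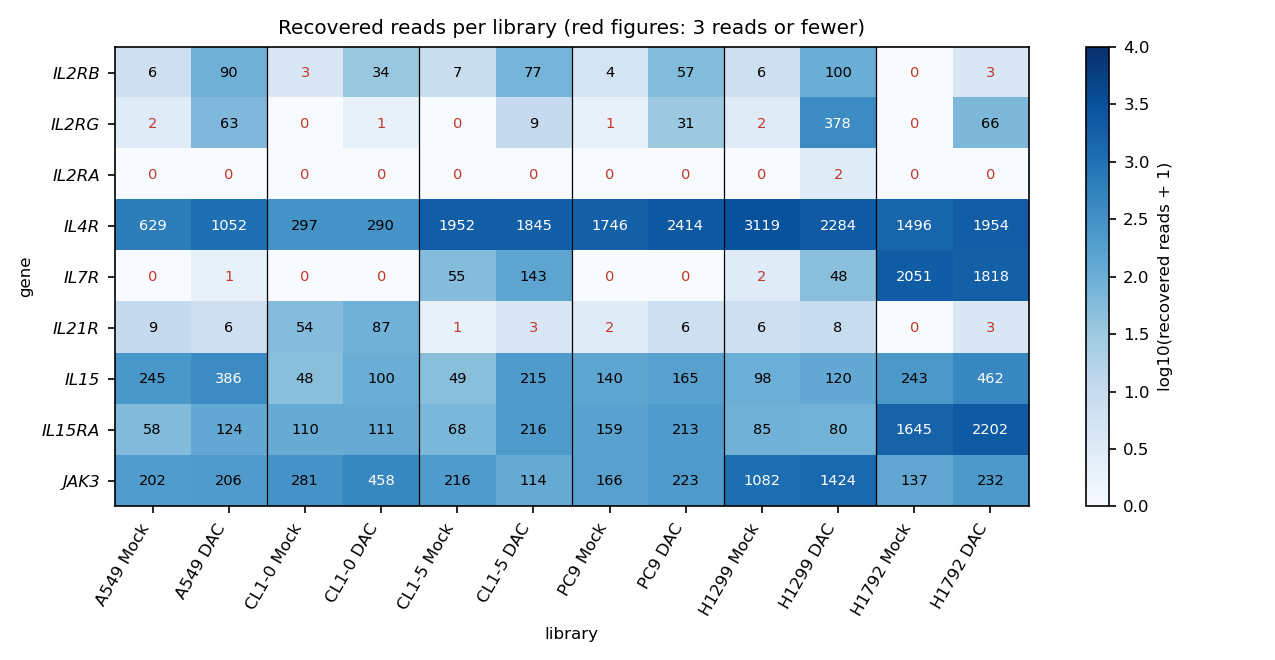
Recovered reads of the 9 members (rows) in the 12 mRNA-seq libraries (columns), with darker blue for more reads on a log10 scale and red figures for 3 reads or fewer. IL2RB and IL2RG were over 3 reads together in 4 DAC libraries and in no Mock library, and IL2RA was at 0 to 2 reads in all 12.

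The common gamma chain was detected in 5 of 6 lines after DAC and in none of the 6 Mock libraries. In every line more genes of the whole table were over 3 reads after DAC. They numbered 18396 in Mock and 21465 in DAC in A549, and 19769 and 20014 in CL1-5. The share of all genes with the same pattern as IL2RG was not computed, so how unusual it is cannot be said. IL2RG (ENSG00000147168, hg19 chrX:70327254-70331958, minus strand) was at 0.0338 FPKM in Mock and 0.902 in DAC cells of A549, at 0 and 0.0122 in CL1-0, at 0 and 0.134 in CL1-5, at 0.0174 and 0.485 in PC9, at 0.0127 and 2.59 in H1299, and at 0 and 0.996 in H1792. The reads behind these values were 2 and 63 in A549, 0 and 1 in CL1-0, 0 and 9 in CL1-5, 1 and 31 in PC9, 2 and 378 in H1299, and 0 and 66 in H1792. H1299 was highest after DAC and CL1-0 lowest. Because CL1-0 DAC lay below the A549, PC9 and H1299 Mock libraries, the 2 treatments overlapped.

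Within lines, IL2RG was 26.7 times higher after DAC in A549 (95% interval 7.09 to 225), 27.8 times in PC9 (4.64 to 1135) and 205 times in H1299 (36.3 to 8121). Against a floor of 3 reads in the Mock library, it was at least 3.35-fold higher in CL1-5 and at least 22.7-fold higher in H1792. CL1-0, with 0 and 1 read, allows no fold. H1792 thus had IL2RG after DAC without detected IL2RB, and CL1-0 the opposite.

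Over the 5 lines, the log2 difference of IL2RG was 2.24 ± 0.59 (SE, n = 5 lines; limma adjusted p = 0.260) on the log2(FPKM + 0.1) scale, with CL1-0 resting on 1 read. A limma voom fit of the recovered reads gave 4.79 ± 0.75 (adjusted p = 0.0333), and across its 14 alternative fits the adjusted p ran from 0.0333 to 1.00. IL2RG passed the filter on low values through its DAC libraries alone, and so had to be higher after DAC to be fitted at all. These p-values are therefore no support for a difference, and the reads in each line are the result. IL2RG lies on the same strand as an overlapping gene model, ENSG00000285171, with 4172 bp in common, which has no row in the table, so that the reads of both cannot be told apart.

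IL2RA, the alpha chain of the high-affinity IL-2 receptor (ENSG00000134460, hg19 chr10:6052652-6104333, minus strand), had 0 reads in 11 of 12 libraries and 2 in H1299 DAC (0.0119 FPKM). It was at or under the detection limit in every library and did not enter the fit. The absence of reads does not show absence of the transcript below that limit.

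IL4R, the chain that binds IL-4 (ENSG00000077238, hg19 chr16:27324989-27376099, plus strand), was the most abundant member in 5 of 6 lines in Mock. Its level was 4.98 FPKM in Mock and 7.06 in DAC cells of A549, 2.13 and 1.66 in CL1-0, 12.2 and 12.9 in CL1-5, 14.3 and 17.7 in PC9, 9.25 and 7.33 in H1299, and 10.2 and 13.8 in H1792. CL1-0 was lowest with either treatment and PC9 highest. The treatments overlapped, with a log2 difference of 0.04 ± 0.16 (SE, n = 5; limma adjusted p = 0.927). Its sign turned when A549 (-0.07) or PC9 (-0.03) was left out.

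IL7R, the IL-7 binding chain (ENSG00000168685, hg19 chr5:35852797-35879705, plus strand), was restricted to few lines. H1792 held 13.6 FPKM in Mock and 12.5 in DAC, CL1-5 held 0.335 and 0.972, and H1299 held 0.00577 and 0.150. A549 had 0 and 1 read, and CL1-0 and PC9 had 0 in both. After DAC, CL1-5 stood at 2.90 times (95% interval 2.11 to 4.04), H1299, with 2 and 48 reads, at 25.97 times (4.24 to 1068), and H1792 at 0.916 times its Mock level (0.860 to 0.976). Over the 5 lines the log2 difference was 0.53 ± 0.31 (SE, n = 5; limma adjusted p = 0.495). It was 0.33 without CL1-5 and 0.35 without H1299, and 1.68 with voom.

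IL21R, the IL-21 binding chain (ENSG00000103522, hg19 chr16:27413495-27463363, plus strand), was low outside CL1-0. CL1-0 held 0.418 FPKM in Mock and 0.537 in DAC (54 and 87 reads). The reads elsewhere were 9 and 6 in A549, 1 and 3 in CL1-5, 2 and 6 in PC9, 6 and 8 in H1299, and 0 and 3 in H1792. The treatments overlapped and the log2 difference was 0.12 ± 0.22 (SE, n = 5; limma adjusted p = 0.826), which turned to -0.26 with quantile normalization. An antisense gene, IL21R-AS1, overlaps it by 4374 bp and reached 0.999 FPKM in H1299 DAC, and whether the authors counted by strand is not given in the sources used here.

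**Figure D2:**
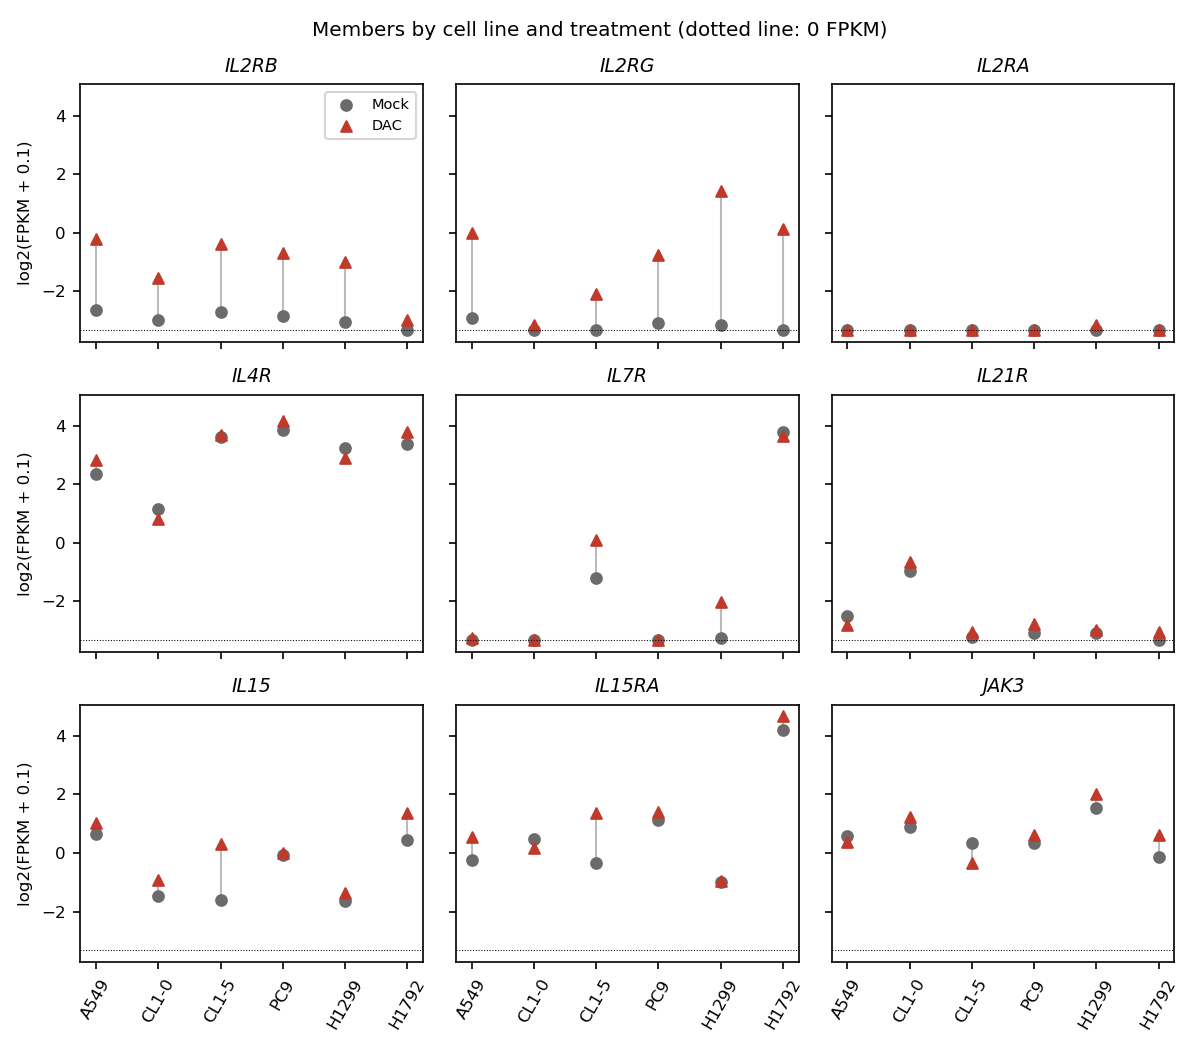
Level of each member on the log2(FPKM + 0.1) scale (y axis) in the 6 lines (x axis), with grey circles for Mock and red triangles for DAC, 1 library each, and a dotted line at 0 FPKM. IL2RB and IL2RG start near the dotted line in Mock, IL4R and JAK3 lie above it in all lines, and IL7R is high only in H1792 among the 6 lines.

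IL15 and its presenting chain IL15RA were detected in all 12 libraries. IL15 (ENSG00000164136, hg19 chr4:142557736-142655140, plus strand) was at 1.45 FPKM in Mock and 1.94 in DAC cells of A549, at 0.259 and 0.430 in CL1-0, at 0.230 and 1.13 in CL1-5, at 0.857 and 0.907 in PC9, at 0.218 and 0.289 in H1299, and at 1.25 and 2.45 in H1792. The DAC library was higher in 6 of 6 lines, with the largest ratio in CL1-5 (4.90, 95% interval 3.58 to 6.82) and intervals that included 1 in PC9 and H1299. The treatments overlapped over lines, and the log2 difference was 0.64 ± 0.29 (SE, n = 5; limma adjusted p = 0.418), or 0.33 without CL1-5.

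IL15RA (ENSG00000134470, hg19 chr10:5985602-6020150, minus strand) was at 0.745 FPKM in Mock and 1.35 in DAC cells of A549, at 1.28 and 1.03 in CL1-0, at 0.690 and 2.45 in CL1-5, at 2.105 and 2.53 in PC9, at 0.409 and 0.417 in H1299, and at 18.2 and 25.2 in H1792. H1792 lay far above the other lines with either treatment. The ratio was 3.55 in CL1-5 (95% interval 2.69 to 4.73), 1.81 in A549 (1.32 to 2.52) and 0.805 in CL1-0 (0.612 to 1.06), and the treatments overlapped. Over the 5 lines the log2 difference was 0.49 ± 0.29 (SE, n = 5; limma adjusted p = 0.506), or 0.19 without CL1-5.

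JAK3, the kinase bound to the common gamma chain (ENSG00000105639, hg19 chr19:17935589-17958880, minus strand), was present in every library. It was at 1.38 FPKM in Mock and 1.195 in DAC cells of A549, at 1.75 and 2.27 in CL1-0, at 1.17 and 0.689 in CL1-5, at 1.17 and 1.41 in PC9, at 2.78 and 3.96 in H1299, and at 0.811 and 1.42 in H1792. H1299 was highest with either treatment and CL1-5 DAC lowest. CL1-5 and A549 were lower after DAC and the other 4 lines higher. The log2 difference was 0.04 ± 0.21 (SE, n = 5; limma adjusted p = 0.942), and it took the opposite sign with quantile normalization (-0.13) and when CL1-0, PC9 or H1299 was left out.

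Among the 7 members other than IL2RB that entered the fit, 0 passed the adjusted threshold of 0.05. At that threshold 27 of all 22603 genes (0.119%) were called higher and 0 (0%) lower. At an unadjusted p under 0.05, 1 of the 7 was higher (IL2RG) and 0 lower, against 8.07% and 4.4% of all genes. The voom fit put 1 of them, IL2RG, past the adjusted threshold, but IL2RG entered these fits only because its DAC libraries were high. None of the 7 had all 5 DAC libraries above all 5 Mock libraries, against 0.491% of all genes. The median log2 difference of the 7 was 0.49, beside 0.07 for all genes tested. IL2RB, IL2RG and IL7R passed the filter on low values only with their DAC libraries, so they had to differ to be counted, and these figures are a description.

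Within lines, those of the 7 members that were at least 2-fold higher on the log2(FPKM + 0.1) scale were counted. The share of all genes is given beside them. In A549, 1 of 7 was (IL2RG), with 15.5% of all genes. In CL1-0 it was 0 of 7 (7.6% of all genes), and in PC9 1 of 7, IL2RG (10.2%). CL1-5 had 4 of 7, namely IL2RG, IL7R, IL15 and IL15RA (7.25%), H1299 2 of 7, IL2RG and IL7R (8.18%), and H1792 1 of 7, IL2RG (10.3%). None of the 7 was 2-fold lower in any line. IL2RG and IL7R passed the filter on low values only with their DAC libraries, so they had to be higher in some line to be counted. The counts that hold them are a description and cannot be read against the shares of all genes.

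**Figure D3:**
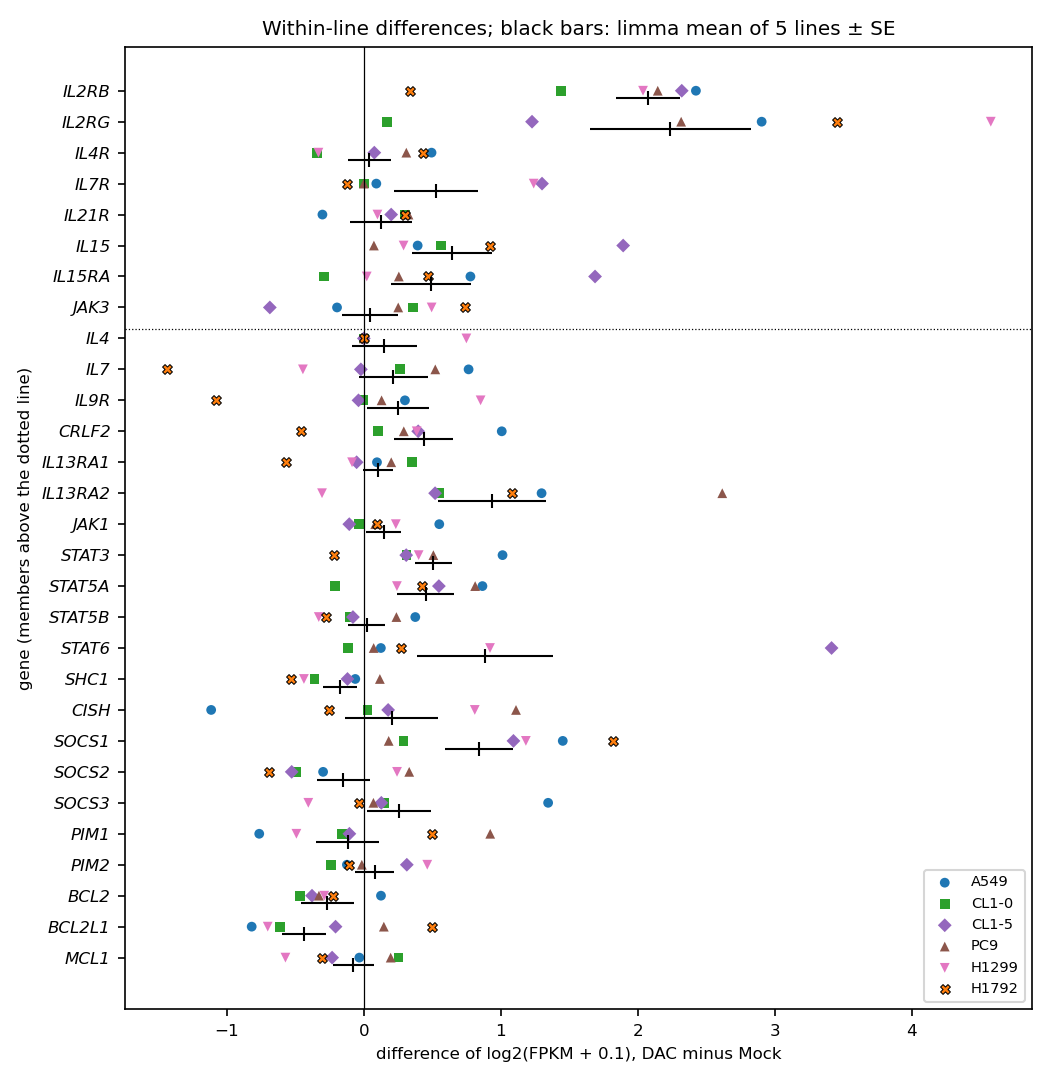
Difference of log2(FPKM + 0.1) between DAC and Mock (x axis) for the members and pathway genes tested (y axis), with 1 symbol per line and black bars for the limma mean of 5 lines ± SE. IL2RG runs from 0.17 in CL1-0 to 4.58 in H1299, while IL4R, IL21R and JAK3 lie on both sides of 0.

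Read as receptors, the chains came together only after DAC for those that need the common gamma chain, at the limit of 3 reads. IL2RB with IL2RG, the pair that forms the intermediate-affinity IL-2 receptor, was detected in A549, CL1-5, PC9 and H1299 after DAC and in 0 of 6 Mock libraries. The same 4 lines also had IL15RA and IL15, which were detected in all 12 libraries and so add no restriction. The pattern of the pair was partly fixed in advance, because the rise of IL2RB chose the set. The 0 in Mock for each set with IL2RG follows from IL2RG alone, at 0 to 2 reads in Mock. These sets are therefore not separate results. With IL2RA added, which makes the high-affinity receptor, the count was 0 of 6 with either treatment. After DAC, CL1-0 had 1 read of IL2RG and H1792 had 3 of IL2RB, neither over the limit. The IL2RB level in H1792 DAC (0.0266 FPKM) was above that in H1299 Mock (0.0223 FPKM), which passed the limit at greater depth.

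IL4R with IL2RG (the type I IL-4 receptor) was detected in 5 of 6 lines after DAC and in 0 in Mock, whereas IL4R with IL13RA1 (the type II receptor) was present in 6 of 6 lines with either treatment. IL7R with IL2RG was found after DAC in CL1-5, H1299 and H1792, and IL21R with IL2RG in A549, PC9 and H1299. At a limit of over 10 reads, CL1-5 dropped out because it had 9 IL2RG reads, which left 3 lines for the β and gamma pair. IL21R with IL2RG was then found in 0 lines, because IL21R itself had 6 to 8 reads in A549, PC9 and H1299. These are counts of RNA in libraries, and no surface protein was measured in these files.

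A list of 26 further pathway genes was read from the same fit. None of the 21 that were tested passed the adjusted threshold, and 3 were higher (STAT3, SOCS1 and IL13RA2) and 1 lower (BCL2L1) at an unadjusted p under 0.05, where 8.07% of all genes were higher and 4.4% lower. Their median log2 difference was 0.15. Of the ligands, 2 of 7 entered the fit, with IL7 at 0.22 ± 0.25 (SE, n = 5; limma adjusted p = 0.721) and IL4 at 0.15. Among the 6 lines, IL4 had reads in H1299 only. Its mean over the 5 lines was 0.0855 FPKM in Mock and 0.157 in DAC. IL4 thus passed the filter on low values through its DAC side, and its value is a description. IL2 was at 0 to 2 reads in every library, and IL21 was not analysed here.

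Of the 4 further receptor chains, IL13RA2, the decoy receptor for IL-13, had the highest difference at 0.94 ± 0.40 (SE, n = 5; limma unadjusted p = 0.0480, adjusted p = 0.399), higher in 4 of 5 lines. It was 0.52 without PC9 and 0.46 with voom. IL13RA1, which pairs with IL4R, had the lowest at 0.10 ± 0.11 (adjusted p = 0.704). Of the 6 signalling genes, STAT6, which carries the IL-4 signal, was highest at 0.88 ± 0.49 (adjusted p = 0.482), a value set by CL1-5, where it went from 0.212 to 3.23 FPKM, and without CL1-5 it was 0.25. STAT3, which carries signals of IL-21 among others, differed by 0.51 ± 0.13 (SE, n = 5; limma unadjusted p = 0.00636, adjusted p = 0.266) and was higher in 5 of 5 lines, from 15.3 to 31.1 FPKM in A549, whereas H1792 had 16.3 in Mock and 14.0 in DAC. The adaptor SHC1 was lowest at -0.17 ± 0.12 (adjusted p = 0.567).

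JAK1, the kinase of IL2RB, was abundant in all lines, with 10.6 to 54.3 FPKM, and differed by 0.14 ± 0.13 (SE, n = 5; limma adjusted p = 0.631). STAT5A differed by 0.45 ± 0.21 (adjusted p = 0.425) and STAT5B by 0.02 ± 0.14 (adjusted p = 0.960). Of the 9 feedback and response genes, SOCS1, an inhibitor of JAK kinases, was highest at 0.84 ± 0.25 and higher in 5 of 5 lines (unadjusted p = 0.0106, adjusted p = 0.288). SOCS1 was also higher in H1792, without detected IL2RB, with 31 reads in Mock and 113 in DAC (ratio 3.77). BCL2L1, which encodes an anti-apoptotic protein, was lowest at -0.44 ± 0.16 (unadjusted p = 0.0292, adjusted p = 0.350).

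CISH, a STAT5 target gene used as a readout of IL-2 signalling, differed by 0.20 ± 0.34 (SE, n = 5; limma adjusted p = 0.813). It was at 0.803 FPKM in Mock and 0.317 in DAC cells of A549, at 0.202 and 0.242 in CL1-5, at 0.122 and 0.380 in PC9, and at 0.0753 and 0.207 in H1299. Of these 4 lines with the β and gamma pair after DAC, A549 alone was lower after DAC. The lines in which the pair was not detected had 0.290 and 0.297 (CL1-0) and 0.623 and 0.505 FPKM (H1792). The ratio was 3.11 in PC9 (95% interval 1.65 to 6.28), 2.75 in H1299 (1.33 to 6.13) and 0.395 in A549 (0.266 to 0.578). The intervals in CL1-5, CL1-0 and H1792 included 1. Whether CISH follows the receptor chains was not tested.

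The genes whose levels most resembled those of IL2RB over the 12 libraries were ERVH48-1, a gene of endogenous retroviral origin (Pearson r = 0.97), S1PR4, a sphingosine 1-phosphate receptor of lymphocytes (0.94), TEX37, a testis-expressed gene (0.92), CT45A10, a cancer-testis gene (0.91), and ANKRD20A19P, a pseudogene (0.90). The points share lines, treatment and depth, and the 5 were picked as the highest of 22814 genes, so the values are a description only. CT45A10 belongs to a family of near-identical copies and its reads may be divided among them. ERVH48-1 was at 0 reads in both H1792 libraries and at 9 to 57 reads in the other 5 DAC libraries. In the same 5 DAC libraries TEX37 had 3 to 17 reads. CT45A10 had 3 reads in PC9 DAC and S1PR4 had 4 in CL1-0 DAC, so these correlations rest partly on values at or near the detection limit. IL2RG reached 0.57 and ranked 492nd, and the other 7 members lay between -0.29 and 0.28.

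Some B-cell and T-cell markers were also higher after DAC, while CD3E, GZMB, NCR1 and PTPRC had few reads, as given above. CD79B, a chain of the B-cell receptor, went from 0 to 6 reads in Mock to 9 to 67 in DAC in the 5 lines and from 1 to 17 reads in H1792. LCK, a T-cell kinase, went from 67 to 422 reads in PC9 and from 5 to 70 in H1299. The summed level of the 9 T-cell markers was 0 to 1.21 FPKM in Mock and 0.142 to 6.73 in DAC, with 0 to 4 and 1 to 6 of them over 3 reads. The 4 B-cell markers summed to 0.0675 to 0.388 and 0.441 to 1.76 FPKM. The 6 NK and cytotoxic markers summed to 0.150 to 0.782 and 0.150 to 0.842 FPKM, and the 5 myeloid markers to 0.775 to 4.85 and 0.802 to 8.33 FPKM. Their part in the result was not tested.

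Of the genes within 50 kb of IL2RB, C1QTNF6, next upstream, was at 6.77 and 6.24 FPKM in Mock and DAC of A549 and at 13.0 and 12.5 in PC9. It was lower after DAC in H1299 (1.55 and 0.880) and CL1-5 (0.708 and 0.594), and higher in CL1-0 (0.563 and 0.766) and H1792 (0.316 and 0.642). TMPRSS6, next downstream, stayed at or under 0.394 FPKM in all 12 libraries, and SSTR3 at or under 0.0191. An antisense lncRNA, ENSG00000235237, overlaps IL2RB by 8362 bp and was at or under 0.188 FPKM. The reads of the 2 strands can be told apart only if counting used the strand.

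In the chromatin data, a peak over the canonical IL2RB start appeared after DAC in 3 of 4 lines. The start is at hg19 chr22:37545956. Peaks covered it in DAC cells of A549 (chr22:37545921-37546279, fold enrichment 3.36), in DAC labelled CL1-5 (chr22:37545914-37546357, 2.85) and in DAC labelled PC9 (chr22:37545754-37546315, 3.10). Each was the strongest peak within 3000 bp of an annotated IL2RB start in its list. Among the strongest such peaks of all genes in the same list they ranked below the middle, at percentiles 41.2, 36.2 and 40.9 in this order. No Mock list and neither H1299 list had a peak there, although the Mock lists labelled CL1-5 and PC9 each had one, centred 1387 bp and 1920.5 bp past the start. Since CL1-5 and PC9 both show it, exchanging their labels leaves the 3 lines unchanged.

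Of 15516 genes with no peak over their canonical start in any of the 4 Mock lists, 92 (0.593%) gained one in at least 3 of 4 lines. Of the 4 members without one in any Mock list, 1 did (IL2RB). JAK3 gained one in 1 line, and IL2RG and IL2RA in 0. The lists are not scaled to each other and each library is single, so no test was made. Each DAC list also held more peaks than its Mock list, for example 78199 against 58734 in A549. H1299, without a peak at the IL2RB start, had the fewest peaks with either treatment (45354 in Mock and 63541 in DAC).

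**Figure D4:**
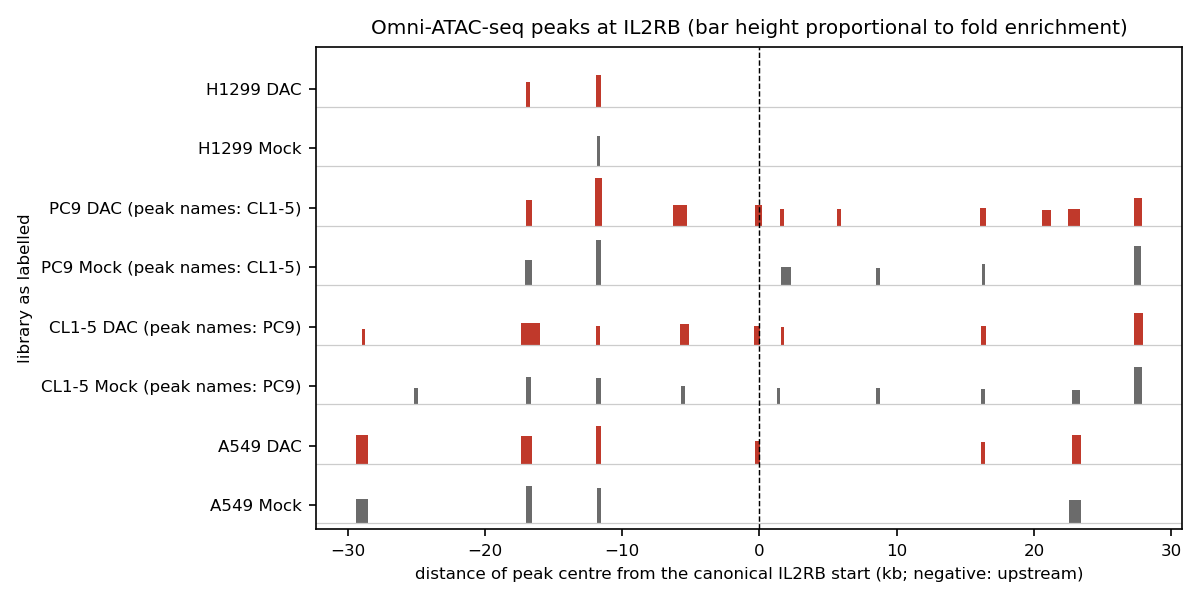
Omni-ATAC-seq peaks within IL2RB and 5 kb around it by distance of their centre from the canonical start (x axis, kb) in the 8 lists as labelled (rows), with bar height proportional to fold enrichment, grey for Mock and red for DAC. A bar stands at the dashed line in the DAC lists of A549, CL1-5 and PC9 and in no Mock list, and bars 11.7 and 16.7 kb upstream stand in nearly every list.

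Farther upstream, inside the longer IL2RB transcripts, a site at chr22:37557465-37557918, centred 11.7 kb before the start, had a peak in 8 of 8 lists with fold enrichments of 2.83 to 7.17. A site at chr22:37561948-37563350, centred 16.7 kb before it, had one in 7 of 8 lists, all but H1299 Mock. Thus A549, CL1-5 and PC9 had a peak at both sites in Mock, with 4 to 7 IL2RB reads. H1299 DAC, with 100 reads of IL2RB, had both of these and no peak at the start.

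The start of IL21R also gained peaks. A peak covered it in DAC cells of A549 (chr16:27413423-27413769, fold enrichment 3.41), of H1299 (chr16:27413485-27413769, 3.31) and in DAC labelled PC9 (chr16:27413385-27413707, 3.73), all 3 without one in Mock. The list labelled CL1-5 had one in Mock (3.90) and, after DAC, a peak beginning 32 bp past the start. IL21R reads in these lines stayed between 1 and 9.

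IL2RG and IL2RA had no peak within 3000 bp of any annotated start in any of the 8 lists, including H1299 DAC, where IL2RG had 378 reads. IL4R, IL15 and IL15RA had a peak over the canonical start in 8 of 8 lists. IL7R had one over its canonical start only in the Mock list labelled PC9 (named CL1-5), with a fold enrichment of 4.07. CL1-5 is the only one of the 4 ATAC lines with over 3 IL7R reads in Mock. The DAC list with the same label and name had no such peak, while IL7R in CL1-5 went from 55 to 143 reads. JAK3 had one in DAC labelled PC9 (4.30). The lists of A549 DAC and of H1299 had JAK3 peaks that ended 14 to 41 bp inside the gene from the start.

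Within lines, the members without a peak over the start in Mock that gained one were 2 of 6 in A549 (IL2RB and IL21R), where 7.13% of such genes did. They were 1 of 5 in the lists labelled CL1-5 (IL2RB; 6.69% of genes), 3 of 5 in those labelled PC9 (IL2RB, IL21R and JAK3; 7.21%) and 1 of 6 in H1299 (IL21R; 5.66%). In the other direction, 1 member lost its peak in the lists labelled CL1-5 (IL21R) and 1 in those labelled PC9 (IL7R). A549 and H1299 had 0 losses. The share of all genes with a loss is not given here. With any annotated start and a window of 3000 bp, 23 of 36 member-by-line pairs had a peak in Mock and 26 after DAC. By the same rule 58.1% to 66.3% of 35393 genes had one in the Mock lists and 62.3% to 68.4% in the DAC lists, so the members lay near the share of all genes.

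**Figure D5:**
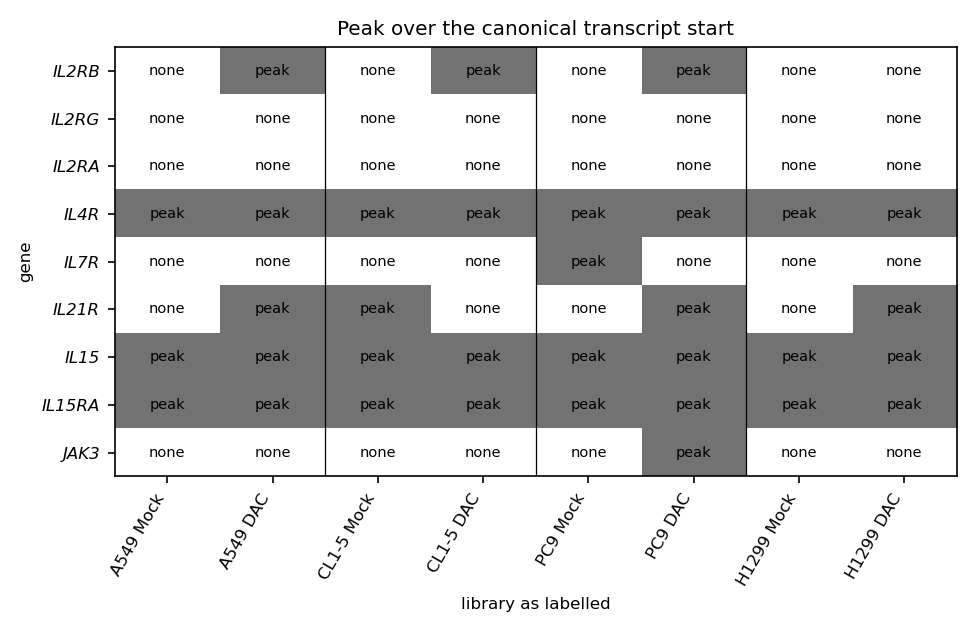
Presence of an Omni-ATAC-seq peak over the canonical transcript start of each member (rows) in the 8 lists as labelled (columns), with grey cells for a peak. IL4R, IL15 and IL15RA have a peak in all 8 lists, IL2RG and IL2RA in none, and IL2RB in 3 DAC lists only.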

How the data were processed

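mRNA-seq was read from 1 table of 12 libraries and Omni-ATAC-seq from 8 peak lists. Per the labels and methods, reads were aligned to hg19. The labels name TopHat2 and the methods RSEM with bowtie2 for mRNA-seq. The authors deposited FPKM values made with DESeq2 1.24.0, and a mean normalized signal per gene. They called broad ATAC peaks per library with MACS2 2.2.5, and deposited each peak's fold enrichment ratio over background and −log10 p and q. The authors' own fold changes and p-values in the table were not used. The number of value columns without a sample was 0.

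Reads were recovered as whole multiples (tolerance 0.02) from FPKM and the mean signal. Genes averaging 0.1 FPKM or more over the 10 libraries of 5 lines (22603) were tested on log2(FPKM + 0.1) by limma 3.58.1 (R 4.3.3). The model held the line as a block, since each line gave a Mock and a DAC library, and an intensity trend. P-values were adjusted by Benjamini-Hochberg over all genes and measure the spread between lines. Peaks were assigned to starts of GENCODE v44 on GRCh37 within 3000 bp. Alternatives covered pseudocount, filter, scaling, trend, block, lines and peak limits. Scripts were tested on simulated data.

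The members and all lists were chosen with earlier results of these data known. Named genes were the members, pathway genes past the threshold or highest and lowest of each sub-list, JAK1, STAT5A, STAT5B, CISH, the 5 genes most like IL2RB, neighbours, and markers that touch a result. Depth limits low genes: 3 reads of IL2RB are 0.0252 FPKM in A549 DAC. Intervals cover counting error only.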

Additional observations from a re-analysis of the deposited data

Results flagged for a closer look

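Over the 6 lines, 25 sets of 6 values (each member's level in Mock, its level in DAC and their log2 difference) were examined for a value far from the other 5, and 5 stood apart. The IL2RA levels in Mock and the IL2RA log2 differences were left out. The sets of 1 gene depend on each other and many values lie at or near 0. The count therefore cannot be set against chance. IL7R in H1792 Mock was at 13.6 FPKM, with the other 5 lines at 0 to 0.335. IL21R in CL1-0 was at 0.418 FPKM in Mock, with the others at 0 to 0.0768, and at 0.537 in DAC, with the others at 0.0226 to 0.0474. The log2 difference of IL21R in A549 was -0.30, against 0.10 to 0.33 in the other lines, from 9 and 6 reads. IL2RA in H1299 DAC was at 0.0119 FPKM, from 2 reads, with the others at 0, so that any value above 0 would have stood apart.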

How the results depend on the processing

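Depth limits the members near 3 reads, above all IL2RB and IL2RG in Mock. The number of genes called over the 5 lines was 27, and it was 0 with a pseudocount of 1, 2 with no filter on low values, 41 after rescaling to a common sum (TPM), 17 with quantile normalization, 6 with no trend, 10 with no replicate block, 53 with H1792 included and 179 with limma voom on the recovered reads. Leaving out 1 line gave 0 to 22, with 0 without A549 or CL1-5, 5 without CL1-0 and 12 without PC9. The median log2 difference of all genes was 0.07, and 0.19 (TPM) or -0.04 (quantile normalization). The number of member (IL2RB left out) and pathway genes past the threshold was 0 in all of these fits but voom, where it was 1. The causes were not tested.

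Of 290 refitted log2 differences of 20 genes, 15 changed sign and 1 (IL2RG with voom) passed the threshold anew. IL2RB kept its direction in all, with 0.54 at a pseudocount of 1 and 3.56 with voom. Signs turned with quantile normalization for IL21R (-0.26), JAK3 (-0.13), IL7 (-0.0255) and CISH (-0.28), and with H1792 included for IL7 (-0.0598), IL13RA1 (-0.00898) and STAT5B (-0.0300). Leaving out 1 line gave -0.0720 to 0.14 for IL4R, -0.0678 to 0.23 for JAK3, -0.0690 to 0.11 for STAT5B and -0.0251 to 0.53 for CISH. Detected member-by-library pairs numbered 74, and 38 at 1 FPKM or more. The gain of 3 member-by-line promoter peaks was 2 to 4 in 5 alternatives, of which the canonical start alone was chosen after seeing the data.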
